A study of Mus musculus with 2 samples.

Results

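Mgp-positive mesenchyme is a set of 294 barcodes (252 Null, 42 Control) out of 46917 in a droplet single-cell RNA measurement of the mouse pancreas at embryonic day 14.5. Mgp encodes matrix Gla protein, a secreted inhibitor of calcification. Members had at least 2000 UMIs (unique molecular identifiers, each marking 1 captured RNA molecule) and under 10% mitochondrially encoded UMIs. They had at least 10 UMIs of Col1a1, Col1a2 and Col3a1 together per 10000. They also passed gates against other cell types. The mesothelial genes Upk3b, Upk1b, Lrrn4 and Msln together had at most 1 UMI, and the epithelial genes Epcam and Cdh1 at most 2. Splenic mesenchyme genes (Tlx1 and Nkx2-5) were at 0, and the gastric mesenchyme gene Barx1 had at most 1 UMI. The smooth muscle genes Actg2, Myh11 and Cnn1 had at most 3. Within its limit, a Barx1 UMI was still held by 22 of 252 Null and 18 of 42 Control members. The last gate asked for at least 2 Mgp UMIs. The gates before it left 1966 mesenchymal barcodes, 696 Null and 1270 Control, of which 1541 had no Mgp UMI (364 Null, 1177 Control) and 131 had exactly 1 (80 Null, 51 Control).

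The study addressed the role of Fgf9, a secreted fibroblast growth factor, in the developing pancreas. The Null library held 3 pancreata pooled from 3 litters, Fgf9 -/- through a LacZ cassette inserted in the gene. The Control library held 8 pancreata pooled from 3 litters, littermates that were Fgf9 +/+ or +/-. All mice were C57BL/6J, and in both libraries cells were freed with TrypLE, gated by size against doublets and sorted as live (DAPI-negative). With 1 pooled library per group there was no replicate and no test between groups, and the unequal number of embryos behind the pools cannot be told apart from the genotype. All 95% intervals below cover counting error only.

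Before the results, several facts set the libraries apart. Among all barcodes past the UMI and mitochondrial limits, Fgf9 itself stood at 1.66 CPM in the Null library (420 UMIs) and 9.47 CPM in the Control library (2821 UMIs), where CPM is UMIs per 1000000 of a cell set's total without mitochondrially encoded and haemoglobin genes. A 3′ tag outside the disrupted part can still be counted from such an allele. Members gave 8 Fgf9 UMIs in the Null library and 1 in the Control library, too few for a comparison. Null members had a median of 17642.5 UMIs and 4463.5 genes, against 9412 UMIs and 3038.5 genes for Control members. By sex-linked RNA the sets were not balanced: 236 of 252 Null members (93.7%) and 9 of 42 Control members (21.4%) had a Y-linked UMI and no more than 1 Xist UMI, against 80.2% of Null and 41.5% of Control cells without Mgp. At least 2 Xist UMIs were found in 0 of 252 Null members and 0 of 364 Null cells without Mgp. The Control library had 31 of 42 such members and 432 of 1177 such cells without Mgp. Sex therefore cannot be told apart from genotype in members or in cells without Mgp, and the closing section gives values for Y-linked cells alone. Free RNA was estimated by scaling the RNA of barcodes under 2000 UMIs to the acinar marker UMIs of each set. The estimate was 5.35% of the UMIs of Null members and 17.8% of those of Control members. It is an upper limit only if those barcodes have the makeup of free RNA, which was not tested. Scrublet called 2 of 239 scored Null members (0.837%) and 0 of 40 scored Control members as doublets (exact interval up to 8.81%), and called doublets were kept. The libraries shared 180 barcodes, none of them among the members.

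Fetal organ mesenchyme is the connective tissue that surrounds and feeds the epithelium with growth factors while it lays down collagens, proteoglycans and elastic fibre proteins. Matrix Gla protein binds calcium through residues that are carboxylated with vitamin K, and it also binds bone morphogenetic proteins. Decorin (Dcn) and lumican (Lum) are small leucine-rich proteoglycans that coat collagen fibrils, and stathmin-2 (Stmn2) is a microtubule regulator best known from growing neurons.

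The 4 markers of the label were read as a description, since the members were chosen with earlier results of these data known. Mgp, Dcn, Lum and Stmn2 were all detected in both libraries, and at least 3 of the 4 were found in 239 of 252 Null members (94.8%) and 33 of 42 Control members (78.6%). Mgp was in every member by the gate, so those shares rest on the other markers. Of cells with 1 Mgp UMI, 82.5% in the Null and 54.9% in the Control library held at least 3 too. Of Mgp-negative cells, which lack Mgp by definition, 11.8% in the Null and 1.78% in the Control library did. Dcn had UMIs in 98.0% of Null and 92.9% of Control members. Thinned to 2000 UMIs per cell these were 86.1% and 88.1%, against 63.7% of Null and 41.5% of Control Mgp-negative cells, and 0.698% of Null and 2.30% of Control acinar cells, which should lack it. Stmn2 was patchier, in 57.9% of Null and 38.1% of Control members. The 3 collagen genes were part of the gate and stood at 2215 (Col1a1), 2349 (Col1a2) and 3762 CPM (Col3a1) in Null members and at 2320, 2493 and 2949.5 CPM in Control members. Marker lists of neighbouring types were read whole. Tendon markers were detected for 5 of 6 genes in Null and 4 of 6 in Control members, all but Tnmd in the Null library. They summed to 53.8 CPM in Null members and 12.9 CPM in Null Mgp-negative cells, and to 31.9 CPM in Control members and 8.20 CPM in Control Mgp-negative cells. Cartilage and bone markers were detected for 7 of 10 genes in Null and 3 of 10 in Control members, with Matn1, Cnmd and Ibsp at 0 in both. They summed to 43.8 CPM in Null members and 32.3 CPM in Null Mgp-negative cells, and to 66.4 CPM in Control members and 73.5 CPM in Control Mgp-negative cells. Glial or neuronal markers were detected for 8 of 10 genes in Null and 2 of 10 in Control members, with Tubb3 and Th at 0 in both. They summed to 36.7 CPM in Null members and 20.6 CPM in Null Mgp-negative cells, and to 26.5 CPM in Control members and 27.8 CPM in Control Mgp-negative cells. The part of such cells in the members was not tested.

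Mgp was the value that chose the members, so its levels are a description. Mgp stood at 706 CPM in Null members and 1200.0 CPM in Control members. Null members carried 2 to 80 Mgp UMIs with a median of 6, and Control members 2 to 48 with a median of 5. At the threshold, 48 Null and 14 Control members had exactly 2 UMIs, while the 80 Null and 51 Control cells with 1 UMI lay just outside. The distribution had a long upper tail, with 45 Null and 9 Control members at 20 UMIs or more.

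Members made up 36.2% of the gated Null mesenchyme (252 of 696, exact interval 32.6 to 39.9) and 3.31% of the gated Control mesenchyme (42 of 1270, 2.39 to 4.44). Depth differed, with medians of 16268 UMIs in gated Null and 6954 in gated Control cells, so each cell was also thinned to 2000 UMIs. At that equal depth at least 1 Mgp UMI remained in 26.3% of Null cells (23.1 to 29.7) and 4.41% of Control cells (3.35 to 5.69). At least 2 remained in 12.6% of Null cells (10.3 to 15.3) and 1.89% of Control cells (1.21 to 2.80). Acinar cells, which should lack Mgp, showed at least 1 UMI at the same thinned depth in 0.0775% of Null cells (unthinned median 47876.5 UMIs) and 0.423% of Control cells (30294 UMIs). Among endothelial cells, which are known to make Mgp in some vessels, at least 2 unthinned UMIs were found in 7.69% of Null and 2.14% of Control cells. With all gates applied to thinned counts the share of members was 24.0% Null and 6.31% Control, and in Y-linked cells alone it was 39.2% Null and 1.76% Control. The share was higher in the Null library beyond counting error under each of these rules, and its size changed with them, while differences between embryos and between preparations, including which mesenchyme came with the dissected organ, were not tested.

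What sets members apart from their neighbours was described within each library, against gated mesenchyme without an Mgp UMI (Mgp-0 cells). Genes with at least 20 UMIs over both sets were measured, leaving out the genes of the gates. Of 12134 measured genes in the Null library, 430 (3.54%) were at least 2-fold higher in members and 283 (2.33%) at least 2-fold lower. Of 11424 in the Control library, 809 (7.08%) were at least 2-fold higher and 1003 (8.78%) lower, but with 42 cells many of those ratios rest on few UMIs. Asking also that the interval leave out 0 gave 387 (3.19%) higher and 226 (1.86%) lower genes in the Null library and 421 (3.69%) and 232 (2.03%) in the Control library. Among the 11136 genes measured in both libraries, 77 met that rule as higher in each, which is 34.5% of the 223 such genes of the Null library and 18.7% of the 411 of the Control library. The number lower in both was 17, or 11.2% of 152 Null and 7.36% of 231 Control genes, and 6 genes went in opposite directions. Within a library the sets also differed in depth, with a median of 13939.5 UMIs in Null and 6887 in Control Mgp-0 cells.

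The profile of higher genes was led by Fibin, which encodes a small secreted protein first described in zebrafish fin development. Fibin (GRCm38 chromosome 2, 110360917 to 110363183, minus strand) stood at 47.3 CPM in Null members and 1.84 CPM in Null Mgp-0 cells, and at 101 CPM in Control members and 1.24 CPM in Control Mgp-0 cells. The log2 ratio of members over Mgp-0 cells was 4.69 (3.73 to 5.84) in the Null library and 6.34 (5.31 to 7.51) in the Control library. Fibin UMIs came from 55 of 252 Null and 13 of 42 Control members, and 1 Control cell held 26.3% of the Control UMIs. Thinned to 2000 UMIs, acinar cells held a Fibin UMI in 0 of 2580 Null cells (exact interval up to 0.143%) and in 0.0264% of Control cells. Unthinned, 9 Null (0.349%) and 6 Control (0.158%) acinar cells held one. Applying the gates to thinned cells gave a log2 ratio of members over Mgp-0 cells of 2.54 in the Null and 4.89 in the Control library.

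Cxcl13 was next. It encodes a chemokine that draws B cells and is made by organiser mesenchyme of lymphoid tissue. Cxcl13 (chromosome 5, 95956951 to 95961068, plus strand) stood at 138 CPM in Null members and 15.9 CPM in Null Mgp-0 cells, and at 419 CPM in Control members and 12.9 CPM in Control Mgp-0 cells. The log2 ratios were 3.11 (2.77 to 3.47) in the Null and 5.02 (4.65 to 5.39) in the Control library. Thinned to 2000 UMIs, 15.5% of Null and 23.8% of Control members kept a Cxcl13 UMI (40.1% and 40.5% unthinned), against 0.194% of Null and 0.185% of Control acinar cells. The log2 ratio was 0.94 in the Null and 3.13 in the Control library with gates on thinned cells.

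Fibin and Cxcl13 are genes for secreted proteins whose summed levels were both high in members (cells holding both were not counted), and their promoter windows are shown as the leading pair. The RefSeq sequences (GRCm38.p6) run from 250 bases before to 50 after the RefSeq start, which is 110362993 for Fibin, inside the GENCODE gene given above, and 95956939 for Cxcl13. They lie at chr2:110362944-110363243 on the minus strand and chr5:95956689-95956988 on the plus strand. Capitals mark a TATAAA match.
Fibin: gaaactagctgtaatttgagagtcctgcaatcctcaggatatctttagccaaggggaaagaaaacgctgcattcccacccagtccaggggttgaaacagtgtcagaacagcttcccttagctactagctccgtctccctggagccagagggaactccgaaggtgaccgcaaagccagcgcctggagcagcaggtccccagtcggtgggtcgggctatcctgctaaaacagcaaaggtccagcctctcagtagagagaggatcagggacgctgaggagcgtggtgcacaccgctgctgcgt
Cxcl13: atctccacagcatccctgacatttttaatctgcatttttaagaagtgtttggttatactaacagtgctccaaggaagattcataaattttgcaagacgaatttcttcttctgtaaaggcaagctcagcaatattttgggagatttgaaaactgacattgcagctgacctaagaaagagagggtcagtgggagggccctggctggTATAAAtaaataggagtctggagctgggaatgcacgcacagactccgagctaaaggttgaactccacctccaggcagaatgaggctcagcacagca
TATAAA was searched on both strands and found once for Cxcl13 and not for Fibin, where 13.6% of 32851 mouse promoters of the same length hold it. CCAAT, searched likewise, was in neither window and is in 37.4% of promoters. The E-box CANNTG, which reads alike on both strands, occurred once for Cxcl13 and not for Fibin, against 72.3% of promoters. None of these matches overlapped another, and a match is a run of letters, not evidence of binding.

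Stmn2 was, in Null members, the most abundant of the 15 leading genes. Stmn2 (chromosome 3, 8509360 to 8561606, plus strand) stood at 608 CPM in Null members and 81.7 CPM in Null Mgp-0 cells, and at 332 CPM in Control members and 12.9 CPM in Control Mgp-0 cells, for log2 ratios of 2.90 (2.75 to 3.05) and 4.68 (4.30 to 5.07). At equal depth 40.1% of Null and 23.8% of Control members kept an Stmn2 UMI, against 11.3% of Null and 2.55% of Control Mgp-0 cells and 0.388% of Null and 0.740% of Control acinar cells. The log2 ratios became 2.07 in the Null and 2.41 in the Control library with gates on thinned cells. Of 12 measured stathmin and neuronal cytoskeleton genes in the Null library 6 were above 0, 2 at least 2-fold higher and 1, the growth-cone gene Gap43, lower (median log2 0.01). The 2 were Stmn2 and Crmp1, the second at 1.22 (-0.16 to 2.76). Stmn1, the widely expressed stathmin of dividing cells, was at 717 CPM in Null members and 645 CPM in Null Mgp-0 cells.

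Trac, the constant segment of the T cell receptor alpha chain (chromosome 14, 54220521 to 54224206), stood at 61.8 CPM in Null members and 7.35 CPM in Null Mgp-0 cells, a log2 ratio of 3.07 (2.57 to 3.61) that was 1.52 with gates on thinned cells. In the Control library 12 UMIs in 5 members gave 31.9 CPM, against 0.497 CPM in Mgp-0 cells. Other T cell genes were at or near 0. Members held 278 Trac UMIs in the Null library beside 1 UMI each of Cd3d, Cd3g and Trbc1, 7 of Trbc2 and none of Cd3e, Cd4 and Cd8a. The sources used here do not say whether strand was used in counting, so a transcript overlapping Trac cannot be told apart from it.

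The other leading genes follow. Ntrk3, the neurotrophin-3 receptor, stood at 28.2 CPM in Null members and 4.70 CPM in Null Mgp-0 cells, and at 45.1 CPM in Control members and 0.621 CPM in Control Mgp-0 cells. Sulf1, which trims 6-O-sulfate from heparan sulfate, was at 316 CPM in Null members and 116 CPM in Null Mgp-0 cells, and at 252 CPM in Control members and 64.6 CPM in Control Mgp-0 cells. Prss23 and Prss35 encode secreted proteins of the serine protease family. Their log2 ratios were 1.68 and 1.89 in the Null and 2.41 and 2.27 in the Control library. C1qtnf7, a secreted protein of the C1q and TNF family, had 2.54 in the Null and 2.38 in the Control library. Igfbp5, which binds insulin-like growth factors, was at 576 CPM in Null members and 205 CPM in Null Mgp-0 cells, and at 332 CPM in Control members and 92.0 CPM in Control Mgp-0 cells. Sfrp2, a secreted Wnt modulator, was at 286 CPM in Null members and 109 CPM in Null Mgp-0 cells, and at 165 CPM in Control members and 47.7 CPM in Control Mgp-0 cells. Tent5a, Fxyd7, Tmtc2 and Brinp1 completed the 15, with log2 ratios from 1.71 to 1.98 in the Null library and from 2.52 to 3.55 in the Control library. With gates on thinned cells 15 of the 15 were still above 0 in the Null library but only 10 at least 2-fold higher, and Igfbp5 fell to 0.25, Sulf1 to 0.38, Fxyd7 to 0.82 and Tmtc2 to 0.92. In the Control library 12 of 13 then measured were at least 2-fold higher, with Tent5a at 0.94.

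**Figure D1:**
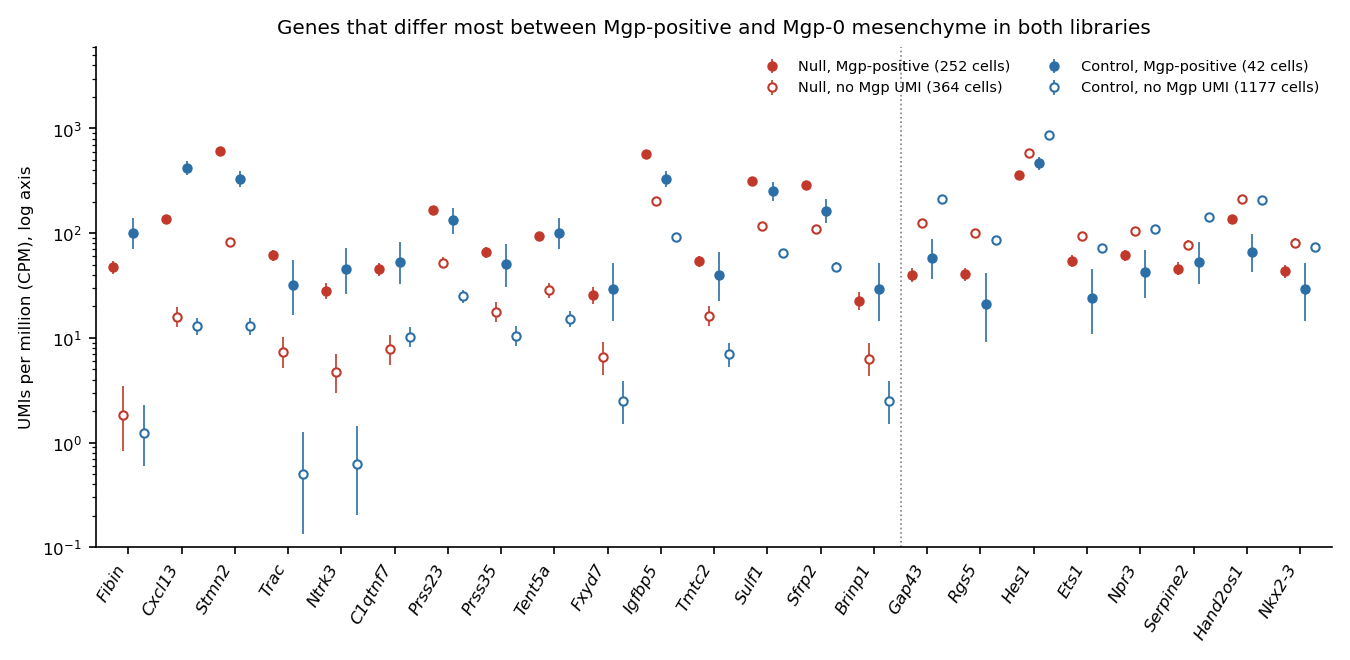
Level (CPM, log axis) of the 15 leading higher genes and, right of the dotted line, the 8 leading lower genes, in members (filled) and Mgp-0 cells (open) of the Null (red) and Control (blue) library. Bars are exact 95% Poisson intervals. Fibin stands at 47.3 CPM in Null members and 1.84 CPM in Null Mgp-0 cells, while Hes1 stands at 363 CPM in Null members and 589 CPM in Null Mgp-0 cells.

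Of the 8 leading lower genes, Gap43 stood at 40.0 CPM in Null members and 126 CPM in Null Mgp-0 cells, and at 58.4 CPM in Control members and 210.2 CPM in Control Mgp-0 cells. In the Control members 59.1% of its UMIs came from 1 cell. Rgs5, a pericyte gene, was at 40.4 CPM in Null members and 99.6 CPM in Null Mgp-0 cells, and at 21.2 CPM in Control members and 85.5 CPM in Control Mgp-0 cells. The pericyte or mural marker list as a whole was not lower. Of 9 measured in the Null library 4 were above 0, 1 at least 2-fold higher and 1 lower (median log2 -0.02). Of 9 in the Control library 5 were above 0, 2 at least 2-fold higher and 1 lower (median 0.34). Hes1, a Notch target, had log2 ratios of -0.70 in the Null and -0.91 in the Control library. Ets1 had -0.80 and -1.61, the natriuretic peptide clearance receptor Npr3 -0.75 and -1.36, the protease inhibitor Serpine2 -0.75 and -1.43, and the gut and spleen homeobox gene Nkx2-3 -0.92 and -1.34, each Null first. Hand2os1, transcribed beside Hand2, had -0.64 and -1.65, and without strand information an overlapping transcript could share its reads. Thinned gates turned Npr3 to 0.26 and gave -0.12 for Serpine2 in the Null library.

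Levels of several profile genes followed the level of Mgp within the Null library. Members were split by Mgp UMIs per 10000 into 99 below 3, 90 from 3 to under 10 and 63 at 10 or above. Dcn ran from 1029 CPM at 0 Mgp UMIs through 1359 at 1 UMI to 1516, 1889.8 and 2237 CPM over the 3 member bins, and Lum from 345 through 393 to 488, 529.9 and 637 CPM. Stmn2 was 81.7 CPM at 0, 68.0 at 1 UMI and then 265, 554 and 1384 CPM. Fibin was concentrated at the top, at 12.7, 24.3 and 150.5 CPM. Mfap4 (226, 442 and 808 CPM) and Cxcl12 (423, 686 and 1116 CPM) followed the same order, Gap43 the opposite one (66.8, 23.6 and 8.91 CPM). Col1a1, a gate gene, did not follow Mgp, at 2029, 2557 and 2105 CPM. The 9, 16 and 17 Control members in the same bins gave 971, 2943 and 2695 CPM of Dcn, 311, 622 and 879 CPM of Lum, 47.1, 463 and 425 CPM of Stmn2, and 0, 22.8 and 252 CPM of Fibin. Since Mgp made the bins, these orders are descriptions.

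**Figure D2:**
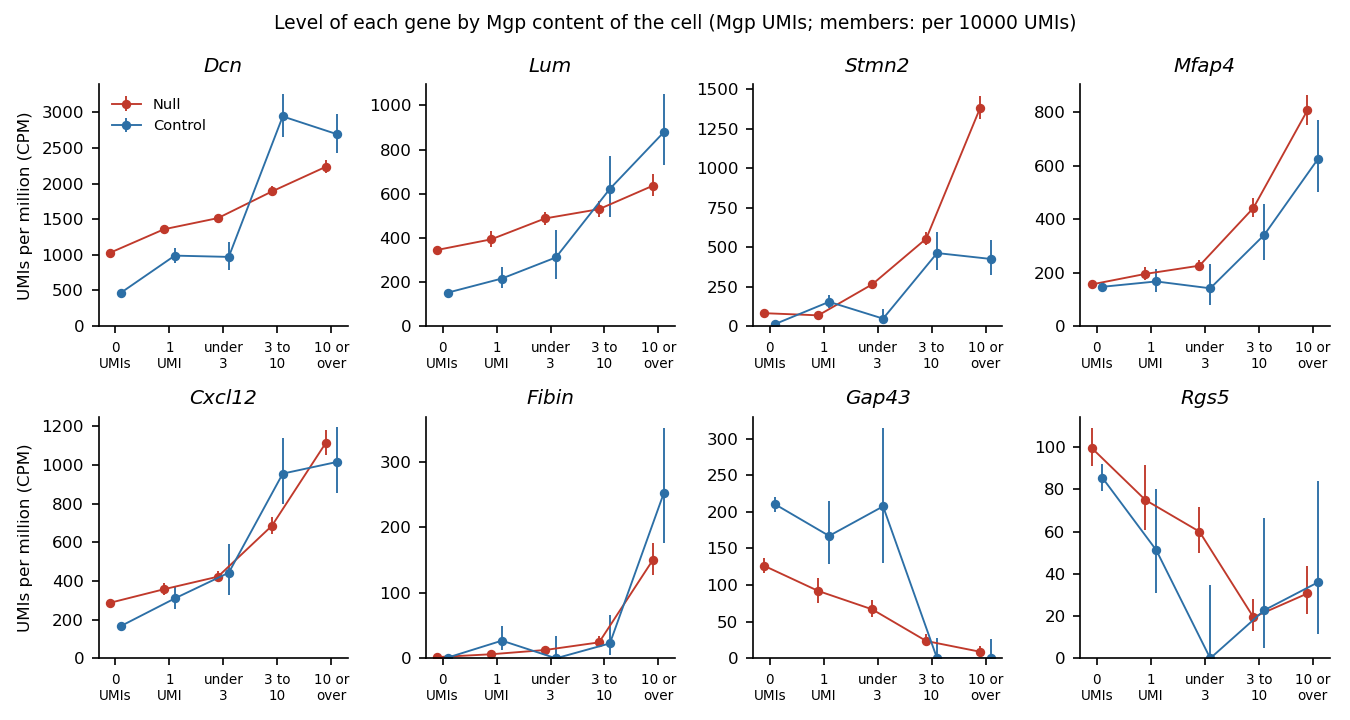
Level (CPM) of 8 genes in cells with 0 or 1 Mgp UMI and in members binned by Mgp UMIs per 10000, for the Null (red) and Control (blue) library, with exact 95% Poisson intervals. Stmn2 reaches 1384 CPM in the top Null bin and 425 CPM in the top Control bin, and Gap43 declines to 8.91 CPM in the top Null bin.

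Matrix genes were described through lists, each given by the number of measured genes above 0, those at least 2-fold apart, and the median log2 ratio, beside 44.9% above 0 and a median of -0.04 over all genes in the Null library and 47.3% and -0.04 in the Control library. Elastic fibre genes were nearly all above 0. In the Null library 15 of 15 were above 0, with 4 at least 2-fold higher and a median of 0.66. In the Control library 14 of 15 were above 0, with 9 at least 2-fold higher and a median of 1.23. Mfap4, a microfibril-associated protein, was at 426 CPM in Null members and 156 CPM in Null Mgp-0 cells, and at 390 CPM in Control members and 147 CPM in Control Mgp-0 cells. Elastin (Eln) was at 95.3 CPM in Null members and 52.1 CPM in Null Mgp-0 cells, and at 92.9 CPM in Control members and 27.1 CPM in Control Mgp-0 cells. Ltbp1, which tethers latent TGF-beta to microfibrils, had log2 ratios of 1.52 (1.17 to 1.87) in the Null and 1.37 (0.10 to 2.43) in the Control library, where 8 UMIs in members carried it and thinned gates gave -0.18.

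Small proteoglycans were higher to different degrees. Dcn was at 1797 CPM in Null members and 1029 CPM in Null Mgp-0 cells, and at 2296 CPM in Control members and 467 CPM in Control Mgp-0 cells. The log2 ratio was 0.80 (0.75 to 0.86) in the Null and 2.30 (2.19 to 2.41) in the Control library. Lum was at 535 CPM in Null members and 345 CPM in Null Mgp-0 cells, and at 629 CPM in Control members and 152 CPM in Control Mgp-0 cells. Null over Control, the log2 ratio was -0.35 for Dcn and -0.23 for Lum in members, and 1.14 and 1.19 in Mgp-0 cells. Osteoglycin (Ogn) was level in the Null library, at 77.3 CPM in members and 78.4 CPM in Mgp-0 cells, and 202 CPM in members against 64.6 CPM in Mgp-0 cells of the Control library. Of 9 measured proteoglycans in the Null library 7 were above 0 and 2 at least 2-fold higher, and of 5 in the Control library 4 were above 0, 3 at least 2-fold higher and 1, Aspn, lower.

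Fibril and interfibril collagens outside the gate showed 0 of 13 at least 2-fold higher in Null members (median 0.24) and 5 of 13 in Control members (median 0.90). Col14a1, a collagen on fibril surfaces, was at 250 CPM in Null members and 161 CPM in Null Mgp-0 cells, and at 390 CPM in Control members and 68.2 CPM in Control Mgp-0 cells. Collagen processing enzymes were above 0 in 13 of 14 in the Null library, 1 of them at least 2-fold higher (P4ha3), and in 12 of 14 in the Control library, 3 of them at least 2-fold higher. Those 3 were the prolyl hydroxylase gene P4ha1 (log2 1.24), the lysyl hydroxylase gene Plod2 (1.67) and the crosslinking lysyl oxidase gene Lox (1.57).

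Matricellular and adhesive glycoproteins were above 0 in 17 of 22 in the Null library, with 6 at least 2-fold higher, and in 17 of 19 in the Control library, with 7. Fibronectin (Fn1) was at 229 CPM in Null members and 102 CPM in Null Mgp-0 cells, and at 135 CPM in Control members and 28.1 CPM in Control Mgp-0 cells. Tenascin-C (Tnc) was at 28.9 CPM in Null members and 5.51 CPM in Null Mgp-0 cells. Control members had 2 Tnc UMIs. Basement membrane genes divided. Col4a1, of the common type IV collagen, was at 254 CPM in Null members and 410 CPM in Null Mgp-0 cells, while the X-linked chain gene Col4a5 was at 72.4 CPM in Null members and 24.1 CPM in Null Mgp-0 cells, and its neighbour Col4a6 at 34.9 CPM in Null members and 7.55 CPM in Null Mgp-0 cells. The list's median was -0.03 in the Null and -0.04 in the Control library. Of the vitamin K cycle genes, on which Mgp activity depends, Vkorc1 had log2 ratios of 0.50 (0.34 to 0.65) in the Null and 1.22 (0.91 to 1.52) in the Control library, and Gas6, another carboxylated protein, 1.59 and 0.90. Of 4 such genes measured 2 were above 0 in each library. The carboxylase gene Ggcx had -0.21 in the Null and -2.35 in the Control library, where members had 1 UMI, and Vkorc1l1 had -0.01 and -0.31.

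**Figure D3:**
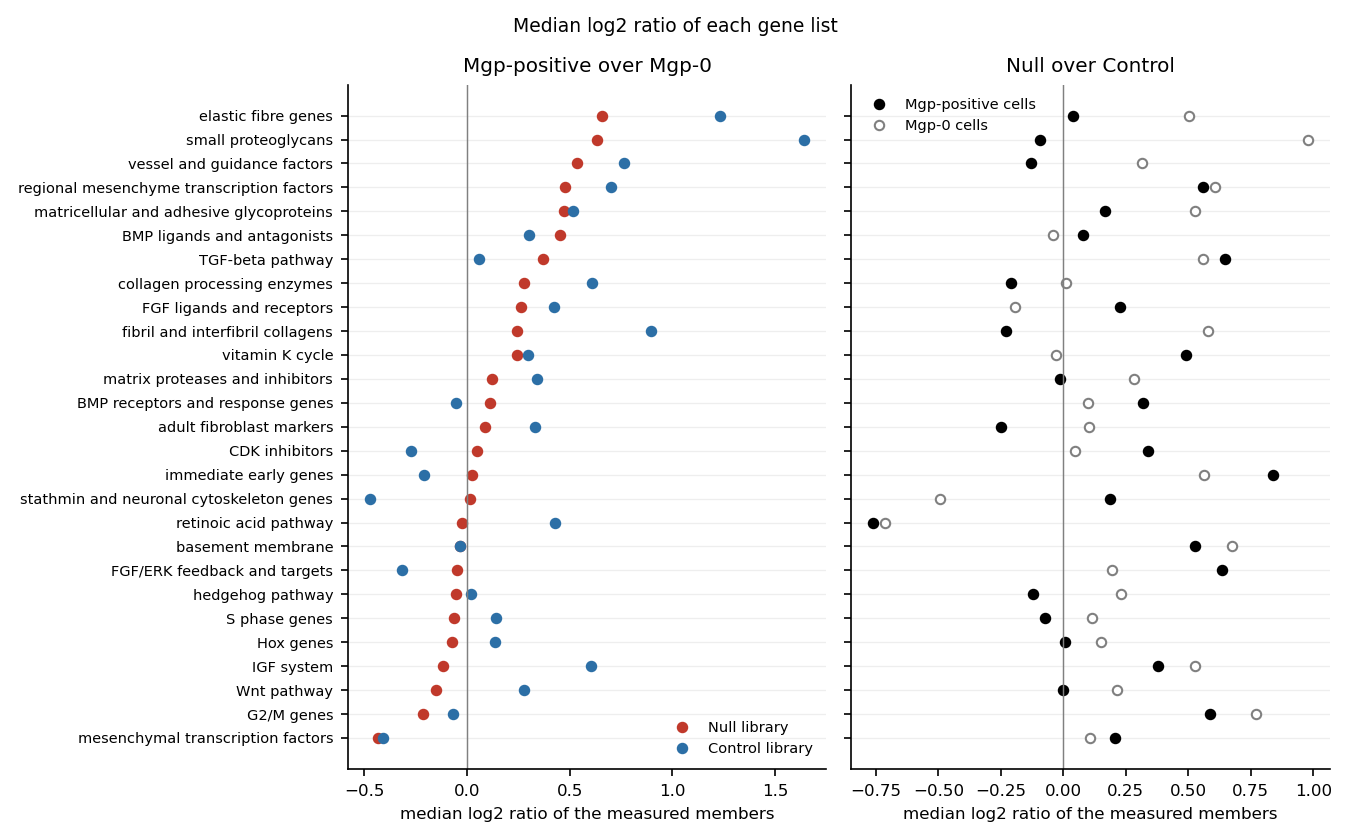
Median log2 ratio of the measured genes of each list. Left, members over Mgp-0 cells in the Null (red) and Control (blue) library. Right, Null over Control in members (filled) and in Mgp-0 cells (open). Elastic fibre genes (0.66 Null, 1.23 Control) and small proteoglycans (0.63 Null, 1.64 Control) lie high on the left, and mesenchymal transcription factors low (-0.43 Null, -0.41 Control).

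Signals that members could send were next. Igf1, a growth factor for many tissues, was at 969.7 CPM in Null members and 446 CPM in Null Mgp-0 cells, and at 632 CPM in Control members and 239 CPM in Control Mgp-0 cells, a log2 ratio of 1.12 (1.05 to 1.19) in the Null and 1.40 (1.20 to 1.60) in the Control library. Igf2 did not share this, with -0.22 and -0.04. Cxcl12, which guides blood and vessel cells, was at 662 CPM in Null members and 287 CPM in Null Mgp-0 cells, and at 834 CPM in Control members and 167 CPM in Control Mgp-0 cells. The lymphatic growth factor gene Vegfc had log2 ratios of 1.07 (0.67 to 1.49) in the Null and 2.54 (1.87 to 3.17) in the Control library. Its relative Vegfd had 0.23 (-0.14 to 0.60) and 3.47 (2.88 to 4.05). Angpt1, the vessel-stabilising ligand of Tie2, had 2.11 (1.85 to 2.38) and 1.76 (0.63 to 2.73). Of the whole list of vessel and guidance factors, 7 of 18 were at least 2-fold higher in Null and 7 of 16 in Control members, and none lower in either.

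Wnt genes were mixed. In the Null library 3 of 17 were at least 2-fold higher (Sfrp2, Wnt4 and Rspo2) and 2 lower (Lef1 and Sfrp5). In the Control library 3 of 14 were higher (Sfrp2, Rspo1 and Rspo3) and 1, the feedback gene Axin2, lower. Retinoic acid genes included Aldh1a1, a retinoic acid synthesising enzyme, at 16.7 CPM in Null members and 2.65 CPM in Null Mgp-0 cells. It was the 1 gene of 10 measured that was at least 2-fold higher in the Null library, where 4 were above 0 (median -0.03), and in the Control library 5 of 11 were higher and 2 lower (median 0.43). Among the FGF and ERK feedback genes, which read FGF signalling, the median was -0.05 in the Null library (0 of 14 at least 2-fold higher, 1 lower) and -0.32 in the Control library (2 of 13 higher, 4 lower). Spry1, an ERK pathway inhibitor, was at 18.0 CPM in Null members and 35.3 CPM in Null Mgp-0 cells, and at 10.6 CPM (4 UMIs) in Control members and 53.6 CPM in Control Mgp-0 cells. The FGF receptor gene Fgfr1 hardly differed, at 80.4 CPM in Null members and 72.5 CPM in Null Mgp-0 cells. BMP ligands and antagonists had 2 of 10 at least 2-fold higher in the Null library, BMP receptors and response genes medians of 0.11 in the Null and -0.05 in the Control library, and hedgehog genes -0.05 and 0.02. Matrix proteases and inhibitors had medians of 0.12 in the Null and 0.34 in the Control library.

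Transcription factors placed members unevenly. Regional factors had 4 of 17 at least 2-fold higher and 1 lower in the Null library, and 3 of 13 higher and 2 lower in the Control library. Mab21l2 had a log2 ratio of 1.70 (1.29 to 2.12) in the Null library and no UMI in Control members. Gata6, a zinc finger factor of endoderm and mesoderm, was at 164 CPM in Null members and 129 CPM in Null Mgp-0 cells, and at 112 CPM in Control members and 35.3 CPM in Control Mgp-0 cells. Osr2 was lower in both, at -1.18 in the Null and -1.43 in the Control library. General mesenchymal factors lay low, with 4 of 21 above 0 in the Null library (median -0.43) and 6 of 19 in the Control library (median -0.41). Prrx1 was at 101 CPM in Null members and 197 CPM in Null Mgp-0 cells, and Zeb1 at 107 CPM in Null members and 187 CPM in Null Mgp-0 cells, and at 112 CPM in Control members and 186 CPM in Control Mgp-0 cells. Hoxa5 had -1.31 in the Null and -0.53 in the Control library, and the Hox list medians were -0.07 and 0.14.

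Proliferation genes were read as G2/M and S phase lists. Of 25 G2/M genes 5 were above 0 in the Null library (median -0.21) and 10 in the Control library (median -0.07), with none 2-fold apart. Mki67 was at 209 CPM in Null members and 331 CPM in Null Mgp-0 cells. At equal depth 17.9% of Null and 11.9% of Control members kept an Mki67 UMI, against 22.3% of Null and 17.5% of Control Mgp-0 cells. Of 20 S phase genes 8 were above 0 in the Null (median -0.06) and 16 in the Control library (median 0.14), again with none 2-fold apart. The cell cycle inhibitor gene Cdkn1c was high throughout, at 4311 CPM in Null members and 4022 CPM in Null Mgp-0 cells, and at 3441 CPM in Control members and 4189 CPM in Control Mgp-0 cells.

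Markers of other cells were read in the same sums. Endothelial markers summed to 93.3 CPM in Null members and 52.1 CPM in Null Mgp-0 cells, and to 47.8 CPM in Control members and 66.7 CPM in Control Mgp-0 cells, with 5 of 252 Null and 0 of 42 Control members holding at least 3 of the 10. All 10 were detected in Null members, and Cdh5, Kdr, Tie1, Tek and Esam were at 0 in Control members. Of 9 measured in the Null library 7 were above 0 and 5 at least 2-fold higher in members (median 1.64), and of 5 in the Control library none was at least 2-fold higher (median -0.63). The part of endothelial RNA in the members' profile was not tested. Pericyte or mural markers summed to 582 CPM in Null members and 716 CPM in Null Mgp-0 cells, and to 579 CPM in Control members and 574 CPM in Control Mgp-0 cells. Smooth muscle markers, 3 of them capped by the gates, summed to 961 CPM in Null members and 612 CPM in Null Mgp-0 cells, and to 558 CPM in Control members and 295 CPM in Control Mgp-0 cells. Leukocyte markers summed to 77.8 CPM in Null members and 119.8 CPM in Null Mgp-0 cells, and to 23.9 CPM in Control members and 118 CPM in Control Mgp-0 cells. Acinar markers summed to 1223 CPM in Null members and 1594 CPM in Null Mgp-0 cells, and to 3019 CPM in Control members and 3984 CPM in Control Mgp-0 cells.

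The direct comparison of Null with Control members addressed whether the cells differ once chosen by the same gates. Barx1, capped by the gates at 1 UMI at any depth, was at 4.89 CPM in Null and 47.8 CPM in Control members. In Mgp-0 cells it was at 4.90 CPM in the Null and 23.4 CPM in the Control library. The part of Barx1-expressing mesenchyme in this comparison was not tested. Of 10639 measured genes 992 (9.32%) were at least 2-fold higher in Null members and 520 (4.89%) at least 2-fold lower. With an interval that leaves out 0 the numbers were 275 (2.58%) and 277 (2.6%). Over all genes 54.3% were above 0 with a median of 0.06. The same ratio in Mgp-0 cells, from the same libraries, is set beside most leading genes and some listed genes. There, 486 of 12830 genes (3.79%) were at least 2-fold higher and 751 (5.85%) lower, of which 445 (3.47%) and 631 (4.92%) had intervals that leave out 0, and 54.4% of all genes were above 0.

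Several genes higher in Null members had few or no UMIs in Control members. Mab21l2, a nuclear factor of gut and body wall mesenchyme, had 200 UMIs (44.4 CPM) in 80 Null members and 0 UMIs in Control members. Set against a floor of 3 counts in the Control library this is a log2 ratio of at least 2.48, and in Mgp-0 cells, at 13.7 CPM in Null and 0.994 CPM in Control cells, it was 3.78 (2.72 to 5.05). Kdr, the main VEGF receptor gene, had 147 UMIs in 55 Null members and 0 in Control members, log2 at least 2.04, and 0.72 (-0.18 to 1.62) in Mgp-0 cells. Pecam1 and Cdh5, which with Kdr define endothelium, had 20 and 18 UMIs in Null members, and the part of endothelial RNA in this value was not tested. Clec11a and Sorcs1 also had 0 UMIs in Control members, with log2 ratios of at least 1.88 and at least 1.67.

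Ntng1, a netrin relative anchored in the membrane, had 207 UMIs in Null members and 1 in Control members, log2 4.11 (1.62 to 9.43), and in Mgp-0 cells -0.28 (-1.09 to 0.49). Tac2, a tachykinin gene, was at 82.6 CPM in Null members and 10.6 CPM (4 UMIs) in Control members, log2 2.96 (1.59 to 4.84), and in Mgp-0 cells, at 18.2 CPM in Null and 29.5 CPM in Control cells, -0.70 (-1.07 to -0.34). For these genes the intervals in members and in Mgp-0 cells do not overlap, as for Tgfb2 and Runx1 below. All were chosen by the interval in members, and the share of all genes with such a gap is not given here. The TGF-beta ligand gene Tgfb2 had 2.76 (1.39 to 4.65) in members and 0.59 (0.28 to 0.90) in Mgp-0 cells. Runx1 had 2.82 (1.26 to 5.11) and 0.78 (0.47 to 1.09). With gates on thinned cells the ratio in members was 1.63 for Tac2, 1.93 for Ntng1 and 0.81 for Tgfb2. In Y-linked cells, with 9 Control members, Control members had no UMI of Mab21l2, Ntng1, Tac2 or Tgfb2, and the bounds were at least 0.059, 0.14, 1.01 and 0.83, while Runx1 had 1.03.

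Angpt1 and Zfhx4 were higher in Null cells of both sets. Angpt1 was at 129 CPM in Null members and 26.5 CPM in Control members (log2 2.28), with 1.93 in Mgp-0 cells, and the zinc finger homeobox gene Zfhx4 at 253 CPM in Null members and 66.4 CPM in Control members (1.93), with 2.09 in Mgp-0 cells. Immediate early genes, which respond within minutes to stimulation and to dissociation, were higher too. Fos was at 1051 CPM in Null members and 327 CPM in Control members (1.69), with 0.68 (0.61 to 0.75) in Mgp-0 cells. Atf3 was at 151 CPM in Null members and 31.9 CPM in Control members (2.24), with 1.01 (0.84 to 1.19) in Mgp-0 cells. For both genes the intervals in members and in Mgp-0 cells do not overlap. They too were chosen by the interval in members, and no share over all genes is given. With gates on thinned cells Atf3 had 0.91 in members. Of 16 listed immediate early genes 13 were above 0 in members, with 4 at least 2-fold higher, 1 lower and a median of 0.84, against 0.56 in Mgp-0 cells. The part of dissociation in these values was not tested.

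Rspo3 and Cdh6 were lower in Null members without being lower in Null Mgp-0 cells. Rspo3, a secreted amplifier of Wnt signalling, was at 32.0 CPM in Null members and 167 CPM in Control members, log2 -2.39 (-2.82 to -1.94). In Mgp-0 cells it was at 35.5 CPM in Null and 35.3 CPM in Control cells, log2 0.01 (-0.27 to 0.29). The 63 Control UMIs came from 24 of 42 cells, with 11.1% in the top cell. Cdh6, a cadherin, was at 15.3 CPM in Null members and 85.0 CPM in Control members, log2 -2.47 (-3.10 to -1.82), and 0.43 (-0.04 to 0.89) in Mgp-0 cells. With gates on thinned cells the ratio in members was -1.01 for Rspo3 and -1.31 for Cdh6. Crabp1, a retinoic acid binding protein, had -2.04 (-2.58 to -1.48) in members and -0.52 (-0.83 to -0.22) in Mgp-0 cells.

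The other 9 lower genes were largely genes of epithelial cells and 2 metallothioneins, and they were lower in Mgp-0 cells as well. Gcg (glucagon) was at 46.0 CPM in Null members and 300.0 CPM in Control members, with 26.5% of the Control UMIs in 1 cell, and its log2 ratio was -2.71 in members and -2.09 in Mgp-0 cells. With thinned gates it turned to 0.31 in members, and Chgb, Ttr and Ambp were -0.58, -0.39 and -0.94. Serpina6 had -2.02 in members and -2.58 in Mgp-0 cells, Ttr -1.87 and -1.90, Ambp -2.11 and -1.75, Bex1 -2.05 and -2.10, Chgb -2.14 and -1.53, and the elastase gene Cela1 -2.03 and -1.96. The metallothioneins Mt1 (-2.25 and -2.31) and Mt2 (-2.17 and -2.43) did likewise. Acinar, ductal and endocrine marker lists were lower too, with medians of -1.27, -1.25 and -1.11 in members. The estimate of free RNA was 5.35% in Null and 17.8% in Control members. With that free RNA subtracted, only 7 of the 12 leading lower genes were still measured, 6 of them at least 2-fold lower. The log2 ratio in members was then 0.071 for Bex1, -1.68 for Serpina6 and -1.67 for Mt1, while it was -2.61 for Rspo3 and -2.81 for Cdh6.

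**Figure D4:**
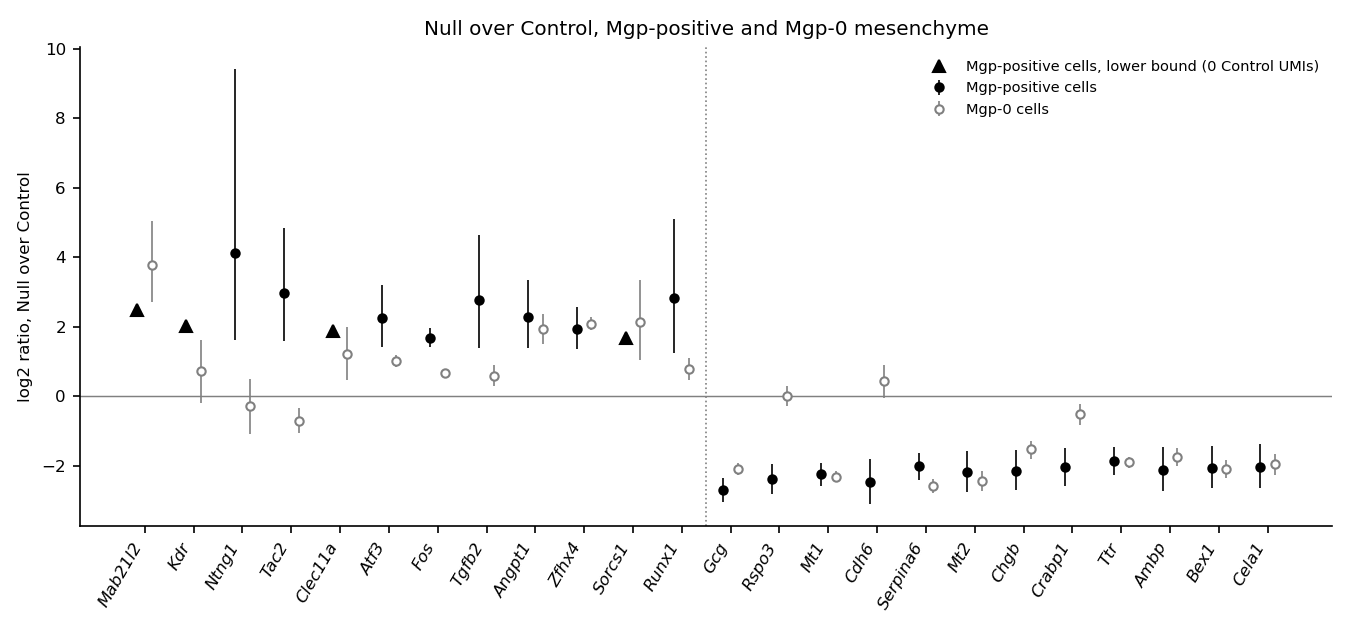
Log2 ratio of Null over Control for the 12 leading higher and, right of the dotted line, the 12 leading lower genes, in members (black) and Mgp-0 cells (grey, open), with exact 95% intervals. Triangles are lower bounds where Control members had 0 UMIs. Rspo3 stands at -2.39 in members and 0.01 in Mgp-0 cells, while Mt1 stands at -2.25 and -2.31.

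By lists, Null over Control members gave few differences in proteoglycans, collagens, collagen processing enzymes and elastic fibre genes. Small proteoglycans had a median of -0.09 with 0 of 6 at least 2-fold higher and 1 lower, Ogn, at 77.3 CPM in Null members and 202 CPM in Control members. Collagens had -0.23, collagen processing enzymes -0.21 and elastic fibre genes 0.04. In Mgp-0 cells the medians of the same comparison were 0.98 for proteoglycans and 0.58 for collagens. Basement membrane genes differed more in members, at 0.53 with 4 of 12 at least 2-fold higher, beside 9.32% of all genes. All 4 had intervals that leave out 0, and in Mgp-0 cells the list had 0.68 with 4 of 14. Of 15 vessel and guidance factors 3 were at least 2-fold higher and 4 lower. The lower ones included Vegfd at 28.4 CPM in Null members and 104 CPM in Control members (-1.86), Vegfc at 33.5 CPM in Null and 71.7 CPM in Control members (-1.10), and Sema3a at 9.77 CPM in Null and 50.4 CPM in Control members (-2.37). Wnt genes had 0 of 14 at least 2-fold higher and 4 lower, namely Rspo3, Rspo1, Wnt5a and Dkk2. Wnt5a, a noncanonical ligand, was at 11.3 CPM in Null members and 42.5 CPM in Control members (-1.91), with -2.08 in Mgp-0 cells. Retinoic acid genes had 0 of 8 higher and 3 lower with a median of -0.76, close to -0.71 in Mgp-0 cells.

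FGF and ERK feedback genes, which read the pathway that Fgf9 feeds, were given for the same pair. In members 4 of 12 were at least 2-fold higher and none lower, beside 9.32% and 4.89% of all genes. The median was 0.64, against 0.20 in Mgp-0 cells. The intervals of Fos (1.69) and Egr1 (1.40, 1.16 to 1.66), which are also immediate early genes, left out 0. Those of Dusp6 (2.44, -0.09 to 7.77) and Etv1 (1.04, -0.12 to 2.51) did not, as Control members had 1 Dusp6 UMI. TGF-beta genes had 5 of 11 at least 2-fold higher, 3 of them with intervals that leave out 0. Their median was 0.65, against 0.56 in Mgp-0 cells, and ran from -0.0084 to 1.02 under the alternatives. G2/M genes had 23 of 25 above 0 with a median of 0.59, against 25 of 25 and 0.77 in Mgp-0 cells. The smooth muscle genes Acta2 and Tagln had 1.48 and 1.71 in members and 1.51 and 1.61 in Mgp-0 cells. Regional factors had 5 of 15 at least 2-fold higher, 4 of them with intervals that leave out 0. Nr2f1 had 1.32 (0.56 to 2.20) in members and 1.74 (1.49 to 2.00) in Mgp-0 cells.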

How the data were processed

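Droplet 3′ RNA libraries of a Null and a Control pool were analysed. The submitters' processing notes name Cell Ranger 6.1.1, bcl2fastq, Seurat 3.2.3 and mm10. The values the authors deposited are raw UMI counts, whole numbers for each gene in each barcode. Depth per cell is given with the members. The gates, members, gene lists and tests were chosen with earlier results of these data known. From the deposited counts, UMIs were summed per library and cell set. Ratios of CPM have exact 95% intervals (binomial, given the sum of both counts), levels carry exact Poisson intervals and shares Clopper-Pearson intervals. A 0 was set to 3 counts per library, so such a ratio is a bound. Of 32285 features 32158 had coordinates in GENCODE vM21 (GRCm38). Python 3.11.15, numpy 2.4.6, scipy 1.17.1 and scanpy 1.11.5 (Scrublet, on barcodes of at least 5000 UMIs) were used, and the interval code was tested on simulated data. Epithelial cells had at least 3 Epcam and Cdh1 UMIs, and acinar cells also at least 50 Cpa1 and Ctrb1 UMIs per 10000. Named genes had at least 100 UMIs in members, were no gate, mitochondrial, haemoglobin, ribosomal, sex-linked or predicted genes, and were ranked by the interval bound nearest 0, in the library where it is nearer 0 for members over Mgp-0 (first 15 higher, 8 lower), and with 20 CPM or more in the higher library for Null over Control (first 12 each way). Listed genes with at least 20 UMIs in members could be named too. Alternatives changed depth, gates, scaling, weighting and thresholds. RefSeq promoters matched 34 of 47 named genes. Results of a few listed genes are not reported here.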

Additional observations from a re-analysis of the deposited data

Results flagged for a closer look

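Members differed from Mgp-0 cells in opposite directions in the libraries for 3 named genes, each by intervals on either side of 0. The difference between the libraries was not tested, since each group is 1 library. Tac2 had 2.19 (1.85 to 2.54) in the Null and -1.47 (-3.36 to -0.10) in the Control library, where members had 4 UMIs. The small proteoglycan gene Aspn had 0.73 (0.33 to 1.13) in the Null and -1.78 (-2.92 to -0.85) in the Control library, from 9 Control UMIs in members. Adamts5, an aggrecan-cleaving protease gene, had -1.13 (-1.34 to -0.92) in the Null and 0.54 (0.14 to 0.92) in the Control library.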

How the results depend on the processing

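No paired analysis was possible because each group is 1 library. Of shares and counts, 52 values under the alternatives stayed close to those reported and 32 moved. The share of members (36.2% Null, 3.31% Control) was 42.5% Null and 5.06% Control with at least 5000 UMIs, 42.5% and 5.10% when called doublets were also left out, 25.3% and 2.13% with at least 4 Mgp UMIs, and 24.0% and 6.31% when the gates were applied to thinned cells. In Y-linked cells alone the Control share was 1.76%. Members over Mgp-0 in the Null library gave 211 higher and 504 lower genes with thinned gates, 474 lower with cells weighted alike, 135 and 66 with at least 100 UMIs per gene, and 200 and 95 at a log2 ratio of 1.5. In the Control library it gave 1334 higher in Y-linked cells, 226 higher and 563 lower with at least 100 UMIs, 309 and 374 at 1.5, and 198 and 493 with at least 5 UMIs expected in each set, an alternative chosen after seeing the data. Null over Control members gave 359 higher and 218 lower genes with thinned gates, 1388 lower in Y-linked cells, 330 and 79 with at least 100 UMIs, 384 and 169 at 1.5, and 533 and 152 with at least 5 expected. Of 231 single-gene ratios that were at least 2-fold with an interval leaving out 0, 19 changed sign under an alternative, and of 866 others 455 did. The cause was not tested. With thinned gates, members over Mgp-0 were -0.41 for Fmod, -0.34 for Angptl1 and -0.41 for Hand1 in the Null library. In the Control library they were -0.055 for Cd34, -0.21 for Heyl, -0.11 for Gpx3, -0.064 for Id2, -0.15 for Boc and -0.18 for Ltbp1. Null over Control members were then 0.31 for Gcg, 0.64 for Fibin, -0.22 for Bub1b and 0.0011 for Sema3d. In Y-linked cells Null over Control members were 0.87 for Fibin, -0.18 for Tbx2 and -0.15 for Col4a5, and Control members over Mgp-0 were 0.12 for Tbx2, 0.14 for Cygb and -0.54 for Ltbp3. With free RNA subtracted, Null over Control members were 0.071 for Bex1. List medians stayed close in 787 values and moved in 104. Median-ratio scaling shifted members over Mgp-0 by -0.03 in the Null and 0.01 in the Control library, and Null over Control by -0.04 in members and 0.09 in Mgp-0 cells. The 42 Control cells limit every value of Control members.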

Other observations

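The IGF system had 3 of 11 genes at least 2-fold higher and none lower in Null members over Null Mgp-0 cells (median -0.12), and 4 of 11 higher and none lower in the Control library (median 0.61). Igfbp3 was at 47.5 CPM in Null members and 162 CPM in Control members, a log2 ratio of -1.77 (-2.18 to -1.33). Adult fibroblast markers had 2 of 12 at least 2-fold higher and 2 lower in the Null library (median 0.09), and 3 of 9 higher and 2 lower in the Control library (median 0.33). Thbs4, a tendon matrix gene, stood at 35.3 CPM in Null members and 4.08 CPM in Null Mgp-0 cells. Of the tendon markers measured 3 of 3 were at least 2-fold higher in the Null library (median 1.41) and 2 of 2 in the Control library (median 2.03). Over all genes 3.54% of the Null and 7.08% of the Control library were that much higher. The tendon list held only 12 UMIs in Control members, and 1 of those 2 genes had an interval that leaves out 0. Of 4 measured glial or neuronal markers 2 were above 0 in the Null library, both at least 2-fold higher (median 1.11). In the Control library 2 of 2 were above 0, 1 at least 2-fold higher, with an interval that did not leave out 0. S100b, a glial gene also found in cartilage, had a log2 ratio of 2.49 (1.62 to 3.47) in Null members over Null Mgp-0 cells. Emcn had 3.51 (1.48 to 6.65) and Flt1 2.08 (1.00 to 3.32), both endothelial genes. Penk, the enkephalin precursor gene, was at 81.8 CPM in Null members and 35.5 CPM in Null Mgp-0 cells, and at 98.2 CPM in Control members and 41.4 CPM in Control Mgp-0 cells.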
